A study of Sus scrofa with 14 samples.

Results

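SCGB1D1 and PHEROC are secretoglobin genes of the pig, chosen by their symbols for a large difference between oxyntic and pyloric mucosa seen earlier in these same arrays. Each was read by 1 row of the array (transcript cluster 15254446 for SCGB1D1, 15261503 for PHEROC), so the pair made up 2 of the 10912 genes that could be named and 2 of the 27460 rows. Their difference between the mucosae is therefore described here by pig and was not tested. The samples were oxyntic mucosa (OXY), the acid-secreting gland area near the greater curvature, and pyloric mucosa (PYL), taken near the sphincter, of 7 unrelated male weaned pigs. All were crosses of Large White and Landrace, aged 5 to 6 weeks and weighing 11.1 kg on average, and all had eaten a standard post-weaning feed for 5 days. Both mucosae of a pig came from the same stomach, with no treatment of any group, which gave 14 arrays. The samples were transmural sections, so that layers below the glands were included, and in such bulk tissue fewer cells of a type and less RNA per cell cannot be told apart.

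Secretoglobins are small secreted proteins that pair into dimers held by disulfide bonds and enclose a hydrophobic pocket, in which steroids and other lipids can bind. The family is best known for uteroglobin, the product of SCGB1A1, from the club cells of the airway. In the pig, SCGB1D1 is listed by RefSeq with the synonym PHEROA, and PHEROA and PHEROC encode the A and C subunits of pheromaxein, a protein of boar salivary glands that carries the androstene steroids acting as boar pheromones. The oxyntic glands hold parietal cells, which secrete acid, and chief cells, which secrete pepsinogens, while the pyloric glands hold gastrin cells.

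All values are log2 of the deposited intensity. The arrays fell into 2 sets by their level. In pigs 1 to 3 the array medians were between 4.83 and 4.92, and in pigs 4 to 7 between 5.63 and 5.73. Every pig had both mucosae in the same set, so a shift in level shared by both arrays of a pig cancelled in their difference. A dependence of the change itself on the set is not removed in this way and is tested below. In the second set the PYL arrays fell into pairs, pigs 4 and 7 (Spearman rho 0.989 over rows) and pigs 5 and 6 (0.991), with 0.954 to 0.965 between the pairs. The defining markers followed the labelled tissue. All 12 measured parietal cell genes were called higher in OXY, compared with 8.52% of all named genes. Their summed intensities were 10706 to 17251 in OXY and 1501 to 2514 in PYL. The gastrin gene GAST was 33.9-fold higher in PYL (log2 change -5.08, SE 0.40, limma with Benjamini-Hochberg adjustment, adjusted p = 0.00016).

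SCGB1D1 lay at the low end of every PYL array and near the top of every OXY array. In OXY its log2 intensity in pigs 1 to 7 was 8.67, 9.20, 10.13, 10.92, 10.80, 10.18 and 10.50 (10.06 ± 0.83, SD, n = 7). In PYL it was 2.49, 2.45, 2.35, 3.37, 3.45, 3.28 and 3.09 in the same order (2.93 ± 0.48, SD, n = 7). The 2 mucosae did not overlap, and the lowest OXY array stood 5.22 log2 units above the highest PYL array. The rise from PYL to OXY within a pig was 6.18, 6.75, 7.78, 7.55, 7.35, 6.90 and 7.40 in pigs 1 to 7, a mean of 7.13 (SD 0.55), which is 140-fold with a range over pigs of 72.5-fold to 219.8-fold. It ranked 2 of 10912 named genes by change, after the proton pump subunit ATP4A with a mean change of 7.52.

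The PYL values of SCGB1D1 were close to the dimmest rows of their arrays. They stood 0.85 to 1.16 log2 units above the lowest value of each array, and between 6.38 and 12.3% of the rows lay at or below them. In OXY between 94.0 and 99.0% of the rows lay at or below SCGB1D1, although such a position also reflects how well a probe hybridises. A signal this near the floor of an array holds background as well as message, so the size of the fold depends on that floor as well as on the OXY level. The array sets differed in the OXY level, 9.33 ± 0.74 in pigs 1 to 3 and 10.60 ± 0.33 in pigs 4 to 7 (SD), and in the PYL level, 2.43 ± 0.07 and 3.30 ± 0.16, as did the arrays as a whole. The change was 6.90 ± 0.81 (SD, n = 3) in the first set and 7.30 ± 0.28 (SD, n = 4) in the second.

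PHEROC followed SCGB1D1 in direction in every pig, but with a wider spread. Its OXY log2 intensity in pigs 1 to 7 was 8.46, 8.35, 9.38, 8.55, 8.28, 10.94 and 8.92 (8.98 ± 0.95, SD, n = 7). In PYL the values were 2.77, 4.30, 4.07, 3.57, 3.43, 3.83 and 3.47 (3.63 ± 0.50, SD, n = 7). Again the mucosae did not overlap, with 3.98 log2 units between the lowest OXY array and the highest PYL array. The change within a pig was 5.69, 4.05, 5.31, 4.98, 4.85, 7.11 and 5.45, with a mean of 5.35 (SD 0.94). This was 40.8-fold on average, from 16.6-fold in pig 2 to 139-fold in pig 6, rank 6 among the named genes by change. By set, the change of PHEROC was 5.02 ± 0.86 (SD, n = 3) in pigs 1 to 3 and 5.60 ± 1.04 (SD, n = 4) in pigs 4 to 7.

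**Figure D1:**
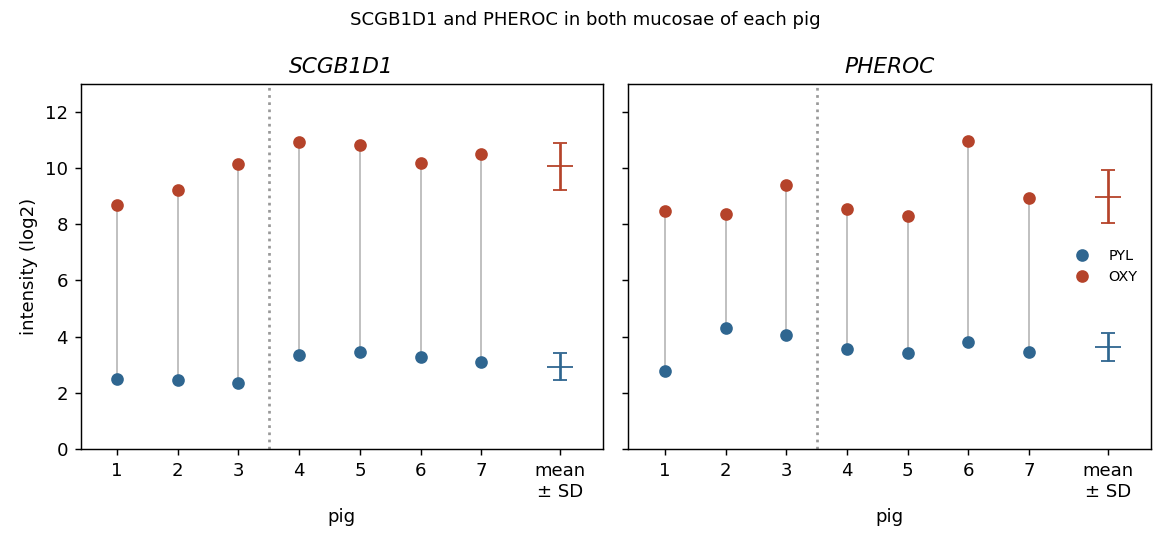
Log2 intensity of SCGB1D1 (left) and PHEROC (right) in OXY (red) and PYL (blue) of pigs 1 to 7, with a line joining the mucosae of a pig, a dotted line between the array sets, and the mean ± SD of the 7 pigs at the right. Neither gene overlapped between the mucosae, and the OXY value of PHEROC in pig 6 (10.94) stood above those of the other 6 pigs (8.28 to 9.38).

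**Figure D2:**
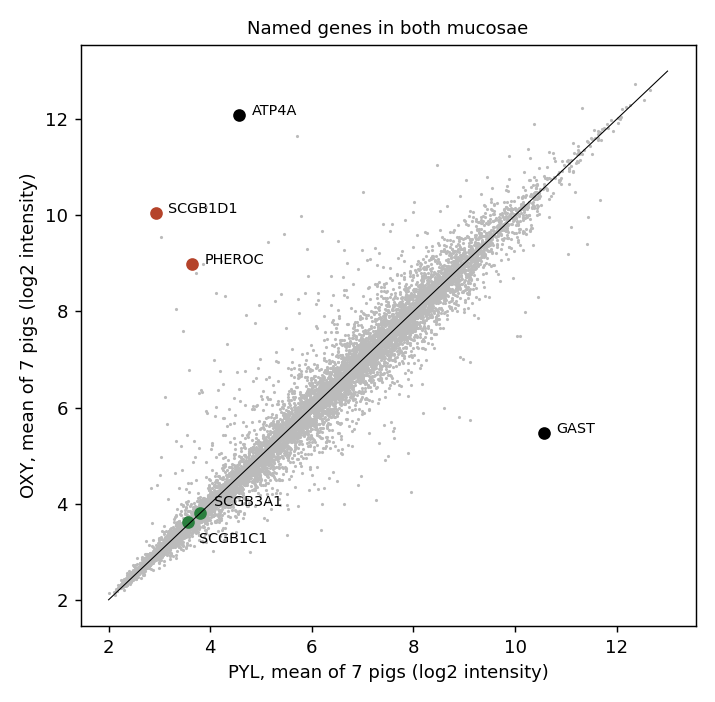
Mean log2 intensity of 7 pigs in OXY (vertical axis) against PYL (horizontal axis) for 10912 named genes, with the line of equal values. SCGB1D1 and PHEROC (red) lie far above the line, the other measured secretoglobins SCGB3A1 and SCGB1C1 (green) lie on it at low values, and ATP4A and GAST (black) mark OXY and PYL.

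Pig 6 stood out in the level of PHEROC in OXY. At 10.94 it was 2.36 log2 units above the mean of the other pigs of its array set (8.58), the third largest such excess among the named genes after PYY (2.48), the gene of an intestinal hormone, and UQCR10 (2.40), a subunit of respiratory complex III. SCGB1D1 in the same array was 0.56 log2 units below that mean, so the high value was not shared by its partner. The parietal cell genes ATP4A and ATP4B and the pepsinogen gene PGC deviated by 0.07, -0.02 and 0.05 from their set means there, while the chief cell factor BHLHA15 deviated by 0.38, its highest value of the 7 pigs. The summed parietal cell intensity in OXY of pig 6 was 17081, compared with 14166 to 17251 in the other pigs of its array set. The summed chief cell intensity was 15430, the highest of the 7 but close to the others of the set (14218 to 15127). By excess over the other pigs of the set, PHEROC was followed by CHAC1 (1.82), MUC2 (1.77), CDO1 (1.54), NPW and AQP5 (1.40). Between the mucosae of all pigs, limma called CDO1 higher in PYL (change -2.83) and UQCR10, CHAC1 and NPW higher in OXY. PYY, MUC2 and AQP5 did not pass. Neither the part of chief cells in the PHEROC value nor that of other tissue in this section was tested. Without pig 6 the mean change of PHEROC was 5.06 and that of SCGB1D1 7.17.

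A further feature of PHEROC was its PYL level in pigs 2 and 3. There 42.3 and 39.2% of the rows lay at or below it, compared with 11.8 to 19.8% in the other 5 pigs, and it stood 2.88 and 2.85 log2 units above the lowest value of the array, compared with 1.13 to 1.64. SCGB1D1 showed no such excess, with 10.6 and 8.64% of the rows at or below it in these PYL arrays. The change of PHEROC in pig 2 was the smallest of the 7 pigs, with a high PYL value. Its OXY value there stood 3.43 log2 units above the array median, inside the range of the other pigs (2.59 in pig 5 to 5.31 in pig 6).

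**Figure D3:**
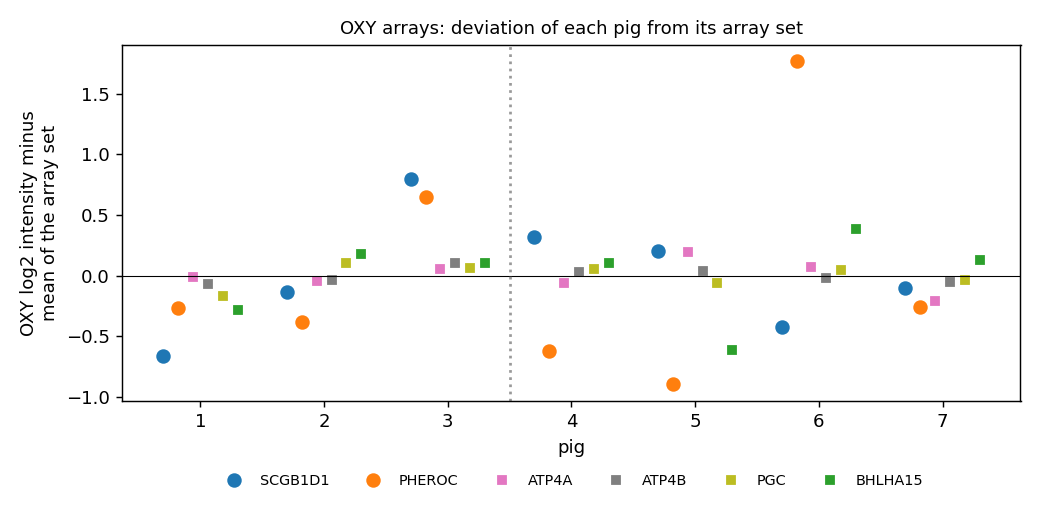
Deviation of the OXY log2 intensity of each pig from the mean of its array set (vertical axis) for SCGB1D1 and PHEROC (circles) and for the parietal cell genes ATP4A and ATP4B and the chief cell genes PGC and BHLHA15 (squares), with pigs 1 to 7 on the horizontal axis and a dotted line between the sets. PHEROC in pig 6 deviates by 1.77 while SCGB1D1 deviates by -0.42, ATP4A, ATP4B and PGC stay between -0.20 and 0.19, and BHLHA15 runs from -0.61 in pig 5 to 0.38 in pig 6.

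The changes of the pair were set side by side in each pig. That of SCGB1D1 was larger in 6 of 7 pigs, by 0.49, 2.70, 2.47, 2.57, 2.50 and 1.96 log2 units in pigs 1 to 5 and 7, whereas in pig 6 that of PHEROC was larger (difference -0.21). The mean difference of the changes was 1.78 (SD 1.16). The SCGB1D1 values in PYL, and those of PHEROC outside pigs 2 and 3, lie near the lowest values of their arrays. Those of PHEROC in pigs 2 and 3 lay below the array median, and no background level was estimated. The difference of the changes is therefore one of array signal and does not give the ratio of the messages. Over the 7 pigs no association of the change of SCGB1D1 with that of PHEROC was detectable (Pearson r = -0.16, exact permutation p = 0.74, and Spearman rho = -0.14, exact permutation p = 0.78, both two-sided). Without pigs 1 and 2, whose changes of SCGB1D1 were farthest from the median, r was -0.78 over 5 pigs. Leaving out 1 pig gave r between -0.46 (without pig 2) and -0.01 (without pig 6). The permutations ran over all 7 pigs regardless of array set, so both p-values hold only if the changes do not depend on the set. The array sets hold too few pigs for a value within each.

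Whether the change depended on the array set, a split that played no part in choosing the genes, was tested with an interaction term in limma. The change of SCGB1D1 was 0.40 log2 units larger in pigs 4 to 7 than in pigs 1 to 3 (SE 0.36, 95% interval -0.43 to 1.23, adjusted p = 0.63). For PHEROC the difference was 0.58 (SE 0.61, 95% interval -0.83 to 2.00, adjusted p = 0.69). Neither difference was larger than the spread between pigs, but the intervals allow a difference of up to 1.23 and 2.00 log2 units. Of the 27460 rows, 0 passed in this limma test after adjustment and 3197 had an unadjusted p under 0.05. The latter is a larger share of the rows than the 0.05 that no dependence on the set would give, so the set may enter the changes of some rows.

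Of 12 secretoglobin symbols looked up, PHEROA among them, 4 were measured, and the other 2 besides SCGB1D1 and PHEROC had changes near 0. SCGB1A1, the uteroglobin gene, was not among the rows named here and was not analysed here, so these 4 genes do not stand for the family as a whole. In limma 0 of these 2 passed, and 0 had an unadjusted p under 0.05. The repeated-measures test of each pig named in the methods also called 0 after adjustment. SCGB1C1, a relative described in the olfactory epithelium of the rat, had a log2 intensity of 2.83, 3.11, 3.03, 4.00, 4.23, 4.15 and 4.05 in OXY of pigs 1 to 7 and of 2.81, 3.16, 2.99, 3.82, 3.97, 4.11 and 4.10 in PYL. Its mucosae overlapped in both array sets, and its change was 0.06 (SE 0.06, limma adjusted p = 0.57). SCGB3A1, which is secreted by the airway epithelium, was at 3.80 ± 0.26 in OXY and 3.80 ± 0.51 in PYL (SD, n = 7). Its change was 0.01 (SE 0.11, limma adjusted p = 0.98), with 3 pigs higher in OXY and 4 in PYL. By mean level SCGB1C1 and SCGB3A1 ranked from 8607 to 9048 of 10912 named genes in the 2 mucosae, near PHEROC in PYL (8929). At so dim a level a change near 0 does not show equal message. As background for the secretoglobin count and those that follow, 8.52% of the named genes were called higher in OXY and 5.1% higher in PYL (930 and 556 of 10912, adjusted p under 0.05). The median change of the named genes was -0.00.

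The lipocalins are another family of small secreted carriers of hydrophobic molecules, and in the pig they include the odorant-binding protein OBP and the salivary lipocalin SAL1, both carriers of pheromones. Of 14 measured lipocalins, 0 passed in limma, with a median change of -0.01 (range -0.55 to 0.23). At an unadjusted p under 0.05 there were 2 higher in OXY and 2 higher in PYL, and the repeated-measures test called 0. SAL1 was at 3.42 ± 0.65 in OXY and 3.43 ± 0.74 in PYL, and OBP at 2.49 ± 0.46 and 2.52 ± 0.46 (SD, n = 7). By mean level SAL1 ranked 9322 and 9300 of 10912 named genes in OXY and PYL, and OBP 10783 and 10744. The means of the whole list in OXY ran from 2.49 (OBP) to 5.20 (LCN2). For genes near background, a change near 0 does not show equal message. The value farthest from 0 was that of the retinol carrier RBP4, -0.55 (adjusted p = 0.058), which was lower in OXY in 7 of 7 pigs.

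Genes for other secretions of salivary and serous glands, tissues in which pheromaxein is made or that hold secretoglobins, did not follow SCGB1D1 and PHEROC as a group. Of 13 measured, 1 was more expressed in OXY, 6 were more expressed in PYL and 6 did not pass, with a median change of -0.43. The repeated-measures test called 2 toward PYL, and limma with pigs 4 to 7 alone also called 2. MSMB, a small protein of seminal plasma and mucosal secretions, was at 7.49 ± 0.69 in OXY and 10.09 ± 0.37 in PYL (SD, n = 7) and fell by 2.60 log2 units from PYL to OXY (SE 0.20, adjusted p = 0.00016). PIGR, the receptor that carries polymeric immunoglobulins through the epithelium, was less expressed in OXY too (change -2.14, SE 0.24, adjusted p = 0.00096). BPIFA1, a secreted protein of the airway and salivary ducts, had a change of -2.63 (SE 0.60, adjusted p = 0.025), a call that was lost without pig 1, 3, 5 or 6 (adjusted p 0.0525 to 0.0719), with pigs 4 to 7 alone (0.16) and with the repeated-measures test (0.089). The others higher in PYL were BPIFB1 (-1.86), lysozyme LYZ (-1.35) and DMBT1 (-0.43). SLPI, a protease inhibitor of glandular secretions, was 0.88 log2 units higher in OXY (SE 0.13, adjusted p = 0.0041, but 0.092 with pigs 4 to 7 alone).

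**Figure D4:**
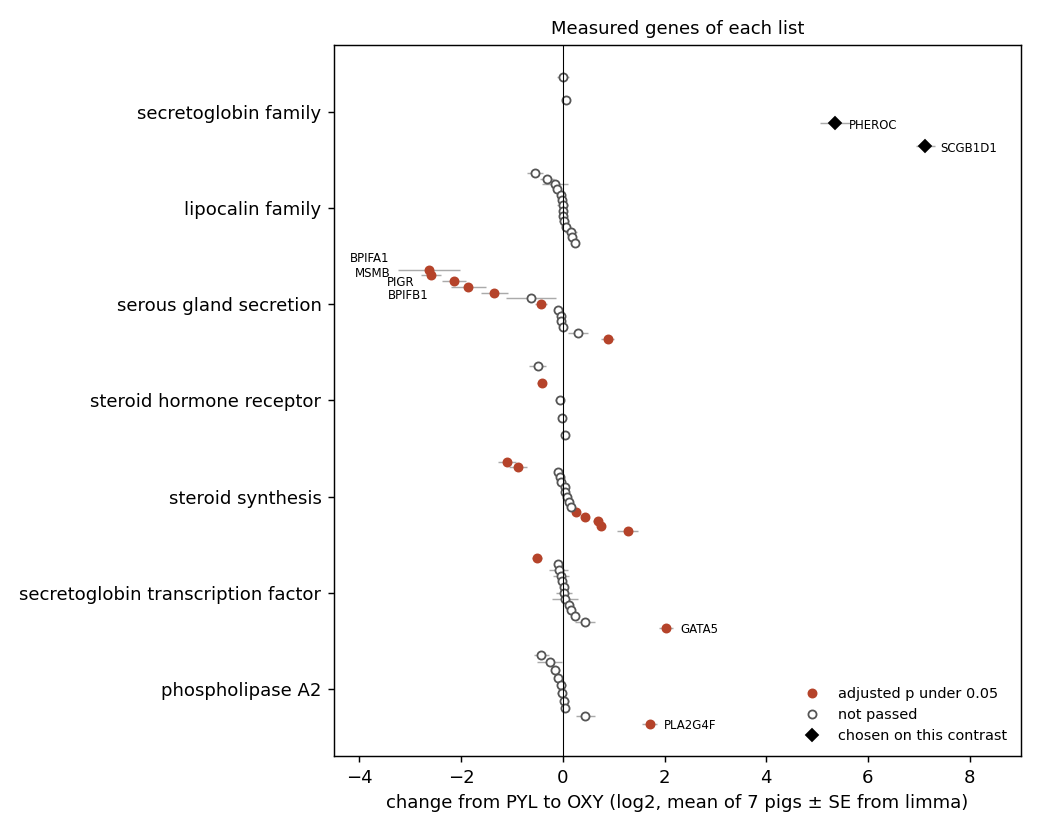
Change from PYL to OXY (log2, mean of 7 pigs ± SE from limma) of each measured gene in the lists described in the text, with filled circles for genes that passed at an adjusted p under 0.05, open circles for those that did not, and diamonds for SCGB1D1 (7.13) and PHEROC (5.35), which were chosen on this contrast. SCGB1C1, SCGB3A1 and the lipocalins lie around 0, and 6 of 13 serous gland genes were called higher in PYL.

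Steroids are the known cargo of pheromaxein, so the genes for their synthesis and for their receptors were listed as well. Of 15 measured genes of steroid synthesis and conversion, 5 passed with the higher level in OXY and 2 with the higher level in PYL, with a median change of 0.08. HSD17B2, which oxidises estradiol and testosterone to their weaker keto forms, changed by 1.28 (SE 0.21, adjusted p = 0.0062, but 0.074 with pigs 4 to 7 alone), HSD17B10, a mitochondrial dehydrogenase, by 0.75, and the electron carrier CYB5A, which assists CYP17A1 in making androstene steroids in the boar testis, by 0.69 (adjusted p = 0.0013, but 0.065 with pigs 4 to 7 alone). HSD17B8 (0.44) and FDXR (0.27) changed less. CYP17A1 itself was at 3.22 ± 0.58 in OXY and 3.10 ± 0.57 in PYL (SD, n = 7) and did not pass (adjusted p = 0.20). The genes of the dehydrogenases that interconvert cortisol and cortisone were more expressed in PYL, HSD11B2 with a change of -1.09 (adjusted p = 0.0060) and HSD11B1 with -0.89 (adjusted p = 0.015). Both calls were lost with pigs 4 to 7 alone (0.13 and 0.12), and HSD11B1 was also lost with pigs 1 to 3 alone (0.12) and with the repeated-measures test (0.059).

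Of 5 measured receptors for steroid hormones, 0 passed in limma toward OXY and 1 toward PYL (0 and 2 at an unadjusted p under 0.05, 0 and 1 with the repeated-measures test), and their median change was -0.06. The glucocorticoid receptor NR3C1 was the one called (change -0.42, SE 0.09, adjusted p = 0.017), and it no longer passed without pig 6 (adjusted p = 0.054), without pigs 4 and 7 (0.058) or with pigs 1 to 3 alone (0.37). The estrogen and progesterone receptors ESR1, ESR2 and PGR changed by -0.06, -0.01 and 0.04.

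Among transcription factors known to act on secretoglobin genes in other tissues, together with related factors, 1 of 13 measured genes was more expressed in OXY and 1 in PYL, with a median change of 0.02. GATA5, a GATA factor of the gut epithelium, was at 7.00 ± 0.41 in OXY and 4.98 ± 0.56 in PYL (SD, n = 7), and it changed by 2.02 (SE 0.14, adjusted p = 7.9e-05) with a rise in 7 of 7 pigs. CEBPA fell by 0.51 log2 units from PYL to OXY (SE 0.10, adjusted p = 0.012, but 0.18 with pigs 4 to 7 alone). NKX2-1, the airway factor that drives SCGB1A1 and SCGB3A2 in the lung, was at 3.95 ± 0.72 in OXY and 3.79 ± 0.62 in PYL (adjusted p = 0.29). Uteroglobin is known as an inhibitor of phospholipase A2, and of 10 measured genes of that enzyme group 1 was called, PLA2G4F, which was more expressed in OXY (change 1.71, SE 0.15, adjusted p = 0.00026). The median of the 10 genes was -0.03.

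The genes whose pattern over the arrays was most like that of SCGB1D1 and PHEROC included several genes of the parietal cell. Likeness was Pearson's r over 14 arrays after centring each gene within its array set, and it is a description, since the arrays share the OXY and PYL split on which the pair was chosen. The 8 genes most like SCGB1D1 were ATP4A (0.995), TMED6 (0.994), ATP4B (0.993), KCNE2 (0.992), HOMER2 (0.992), TMEM211 (0.991), EPOR (0.991) and KCNJ15 (0.990). ATP4A and ATP4B are the subunits of the proton pump, KCNE2 and KCNJ15 belong to potassium channels of the parietal cell, and EPOR is the erythropoietin receptor. For PHEROC the list was led by KCNJ15 (0.974), FAM20A, ATP4B, PGA5, COX5B (0.971 each), HOMER2, NDUFS1 and the histamine receptor HRH2 (0.970 each), where PGA5 is a pepsinogen of the chief cell and COX5B and NDUFS1 are subunits of the respiratory chain. SCGB1D1 and PHEROC had an r of 0.96 with each other. PHEROC had rank 62 of 10911 genes by likeness to SCGB1D1 and SCGB1D1 rank 23 by likeness to PHEROC. Both lists of 8 depended on the measure, with 0 genes shared with a ranking by Spearman. When 1 pig was left out, 6 to 7 of the SCGB1D1 list and 2 to 5 of the PHEROC list stayed.

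Inside OXY alone the likeness of the pair depended on single pigs. Over the 7 OXY arrays, centred within set, their r was -0.13, without pig 6 it was 0.64 and without pig 3 it was -0.78 (6 arrays each), so no direction can be given. The r of SCGB1D1 with the 12 parietal cell genes ran from -0.38 (TRIM50) to 0.92 (ATP4B) with a median of -0.04, and with the 7 chief cell genes from -0.31 to 0.70 with a median of 0.49. Without pig 6 these medians were 0.07 and 0.67. PHEROC had values of -0.35 to 0.82 with the parietal cell genes (median 0.16) and of 0.31 to 0.70 with the chief cell genes (median 0.61), and without pig 6 the medians were -0.04 and 0.57. The genes most like SCGB1D1 there were ITGA5 (0.979), LOC100152911, GRIK5, ORAI2 and SPERT, and those most like PHEROC were TWIST2 (0.990), NKAIN1, PTHLH, SELENOO and CCDC42. These 10 genes varied little, with an SD of 0.06 to 0.46 log2 units within a set, and with 7 arrays such values are no measure of a shared source.

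Both genes lie next to each other on the chromosome, PHEROC first, as neighbouring entries in the RefSeq gene order of Sscrofa11.1. The 10 nearest measured genes, 5 on each side, were used to see whether the OXY signal extended beyond the pair. Genes of the region without a named row were passed over, so whether any of them shares the signal could not be seen. Of these 10 genes, 0 passed in limma toward OXY and 1 toward PYL (2 and 1 at an unadjusted p under 0.05, 0 and 1 with the repeated-measures test), with changes from -0.57 to 0.21 and a median of -0.07. AHNAK, a large scaffold protein and the nearest measured gene before PHEROC, was at 9.74 ± 0.68 in OXY and 10.31 ± 0.79 in PYL (SD, n = 7), a change of -0.57 (SE 0.11, adjusted p = 0.011) in the same direction in 6 of 7 pigs. This call was lost when pigs 1 to 3 were fitted alone (adjusted p = 0.31). INCENP, a subunit of the chromosomal passenger complex and the nearest after SCGB1D1, changed by 0.01 (SE 0.12, adjusted p = 0.98). The fatty acid desaturase genes FADS3, FADS2 and FADS1 beyond it had changes of -0.45, -0.38 and -0.15, none of which passed (adjusted p 0.28 to 0.69). The remaining neighbours LOC100737875, LOC100627892, TUT1, EEF1G and TMEM258 had changes of 0.15, -0.09, -0.04, -0.01 and 0.21.

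**Figure D5:**
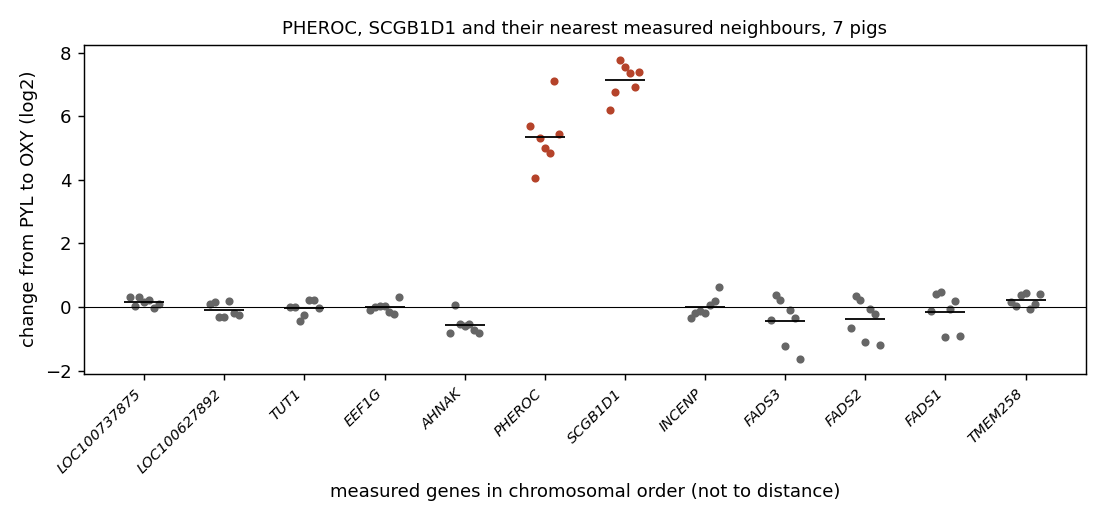
Change from PYL to OXY (log2) in each of the 7 pigs (points) and their mean (bars) for PHEROC, SCGB1D1 (red) and the 5 nearest measured genes on each side (grey), in chromosomal order and not to distance. Among these measured genes PHEROC (mean 5.35) and SCGB1D1 (mean 7.13) stand alone, with the other means between -0.57 and 0.21. Genes without a named row are not shown.

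Markers of other cells that a transmural section could bring in, or of tissues known for secretoglobins, were set beside the pair. Of 4 measured squamous epithelium genes 0 were called in limma, 0 had an unadjusted p under 0.05 and 0 passed the repeated-measures test. Their summed intensity was 33.9 to 83.6 in OXY and 33.2 to 79.3 in PYL. Of 7 pancreatic acinar genes 2 were more expressed in OXY, GP2 (1.83) and CPA1 (1.19), and 1 in PYL, CELA1 (-2.62), with summed intensities of 238 to 615 in OXY and 256 to 1918 in PYL. The call of CELA1 was lost with the repeated-measures test (adjusted p = 0.063) and with pigs 4 to 7 alone (0.20), and that of CPA1 with pigs 1 to 3 alone (0.052). Chief cell genes were more expressed in OXY for 4 of 7, led by the transcription factor BHLHA15 (2.87), with summed intensities of 11003 to 15430 in OXY and 8159 to 12330 in PYL. Of 14 enteroendocrine genes 2 passed toward OXY and 6 toward PYL. The mucous neck list had 1 call in OXY, the pepsinogen gene PGC (0.90), which is also on the chief cell list, and 1 in PYL, GLIPR1 (-0.95). The tuft cell list had 1 call in OXY, PTGS1 (0.61). It was lost with the repeated-measures test (adjusted p = 0.058) and with pigs 1 to 3 alone (0.31). In limma 0 of 4 surface mucous cell genes passed (0 and 2 at an unadjusted p under 0.05, 0 with the repeated-measures test). Smooth muscle, fibroblast, T cell, B cell and red blood cell lists held 25 measured genes and 0 calls in limma, with 2 higher in OXY and 3 higher in PYL at an unadjusted p under 0.05 and 0 with the repeated-measures test. The part of any of these cells in the SCGB1D1 and PHEROC signal was not tested.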

How the data were processed

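Total RNA of both mucosae was hybridised by the authors to Affymetrix porcine whole-transcript arrays, and a Robust Multichip Analysis in Expression Console is named for the arrays. The deposited values are intensity on a linear scale, 1 per row. The genome build on which the array rows were designed was not given in the sources used here, and Sscrofa11.1 served only for the order of genes in RefSeq. Gene names in the study's methods came from an Ensembl release. The intensities were taken to log2 and not normalised again. Rows were named from the platform annotation given with the data and updated through RefSeq, which left 11982 rows with 1 symbol, 373 with several and 15105 with none. The row of highest mean stood for a gene. Of all rows, 1239 held the same values as another row. Probe sequences were not used, so hybridisation of SCGB1D1 message to PHEROC probes, or the reverse, was not tested. The number of arrays, 14, limits the precision.

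All rows were fitted with limma 3.58.1 in R 4.3.3, with the pig as block, because the methods state repeated measures of each pig, and Benjamini-Hochberg adjustment over 27460 rows at 0.05. The fit was tested on simulated data. A shared replicate number means the same animal in both mucosae, which is where the pairing comes from. The deviations of the 2 mucosae of a pig from their means within array set correlated by -0.03 to 0.62. Without the replicate block 326 rows were called higher in OXY and 150 higher in PYL, compared with 1888 and 1226.

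The genes described and all lists were chosen with earlier results of these data known. Genes named in the text were SCGB1D1 and PHEROC, the measured secretoglobins, up to 3 called genes of largest change in each direction per family or pathway list, up to 3 of largest change per cell type list, the 10 neighbours, and the 8 (14 arrays) or 5 (OXY arrays) genes of highest r. Others were named after their values were seen. Lists were described by counts and medians, with no set test. Alternatives were other scalings, other fits, subsets of the pigs and a filter on dim rows.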

Additional observations from a re-analysis of the deposited data

Results flagged for a closer look

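The OXY level of PHEROC in pig 6 was far from those of the other pigs. Its gap to the nearest pig was 0.586 of the whole range of the 7 OXY arrays, above Dixon's critical value for 7 samples. Chance gives a gap past that value, at the high or the low end, in about 1 in 20 groups drawn from a single normal distribution. In these OXY arrays, which form 2 sets, a high outlier by this measure was found in 43 of 10912 named genes (0.394%). That count leaves out low outliers, so it is not on the same footing as the 1 in 20. After median centering the share was 0.284, after quantile normalization 0.324, and after centering within the array set 0.420, all below the critical value, and these scalings were chosen after the data were seen. In OXY, pig 6 was a high outlier by the same measure in 4 of 10912 named genes, compared with 1 to 15 for the other pigs. The PYL level of PHEROC in pig 6 was 3.83, inside the range of the other pigs, and SCGB1D1 in OXY of pig 6 was 10.18.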

How the results depend on the processing

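The changes of SCGB1D1 and PHEROC and their difference kept their direction under every alternative run for them. The interaction with array set kept its sign but did not pass, and its size moved widely. It ran from 0.04 (without pig 1) to 0.84 (without pig 3) for SCGB1D1. For PHEROC it ran from 0.08 (without pig 6) to 0.92 (without pig 1). Leaving out 1 pig, chosen after the data were seen, turned the sign of the r of the pair over the OXY arrays (-0.78 to 0.64). The change of SCGB1D1 ran from 6.90 (pigs 1 to 3 alone) to 7.30 (pigs 4 to 7 alone). That of PHEROC ran from 5.02 (pigs 1 to 3 alone) to 5.60 (pigs 4 to 7 alone). Averaging several rows per gene gave no other value, since each has 1 row. The counts of rows called depended on the fit. Without the replicate block the calls were 326 toward OXY and 150 toward PYL, with pigs 1 to 3 alone 665 and 562, with pigs 4 to 7 alone 686 and 289. The repeated-measures test gave 1386 and 637 after adjustment and 3529 and 2958 without it. Leaving out 1 pig gave 1386 to 1705 rows higher in OXY and 690 to 1232 in PYL, where the count in PYL was 784 without pig 1, 787 without pig 3 and 690 without pig 6.

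Over the listed genes other than secretoglobins, 29 calls higher in OXY became 19 and 18 higher in PYL became 11 without the replicate block. The calls in PYL were 6 with pigs 4 to 7 alone, 10 with the repeated-measures test and 28 with that test unadjusted. Among the neighbours the 1 call in PYL became 0 without the replicate block and 0 with pigs 1 to 3 alone, and the unadjusted repeated-measures test gave 2 in OXY. Over 84 named genes and 1332 values, 0 calls reversed, 44 were lost and 7 gained, and 19 genes changed sign with no call. Of the 8 genes most like SCGB1D1, 0 were shared with a ranking by Spearman and 6 to 7 when 1 pig was left out. Of those most like PHEROC, 0 were shared by Spearman, 4 without centering and 2 to 5 when 1 pig was left out. The causes were not tested. PYL values near background limit the folds. No background level was estimated, so whether this also holds for PHEROC in pigs 2 and 3 is not known.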
